A study of Mus musculus with 3 samples.

Results

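The genes described here are 9 transcription factors that guide the birth and maturation of inhibitory interneurons: Dlx1, Dlx2, Dlx5 and Dlx6, the medial eminence factors Nkx2-1, Lhx6, Sox6 and Maf, and the caudal eminence factor Prox1. They were chosen by gene symbol and are 9 of 18221 protein-coding genes (27480 genes in all) with a row in the deposited table. RNA came from cortical neurons dissociated from wild-type Swiss-Webster mouse embryos at embryonic day 16 and cultured in neurobasal medium with B27. All 3 libraries, Control 1, Control 2 and Control 3, carry the label of no treatment; a brief etoposide exposure that the shared growth protocol mentions is not given to any of them by its labels. The single group leaves no condition to compare, so each comparison is between genes within the same libraries. Whether the libraries are of separate cultures is not stated, so every p-value here speaks of the variation among these samples, which may be technical. Swiss-Webster is an outbred stock, and whole cortical cultures hold several cell types.

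Cortical interneurons are not born in the cortex. They arise in the ganglionic eminences of the ventral forebrain and migrate into the cortex before birth. DLX homeodomain proteins act in all eminences, where they promote GABAergic identity and migration. In the medial eminence NKX2-1 sets regional identity and activates Lhx6, whose product is kept in the somatostatin and parvalbumin interneurons that arise there, with SOX6 and MAF acting later in the same lineage. PROX1 acts in interneurons of caudal origin, such as those that make VIP or reelin.

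Levels are given in TPM (a share of reads corrected for transcript length, scaled so that each library sums to 1000000) of the longest protein-coding transcript row of each gene. Genes averaging at least 1 TPM over the libraries were counted as detected. By this rule 7 of the 9 genes were detected, against 61.5% of all protein-coding genes (11214 of 18221). Prox1 and Nkx2-1 were the exceptions. On the log2(TPM + 1) scale the median level of the 9 genes was 1.77, with an SD of the 3 library medians of 0.12, and that of all protein-coding genes was 1.94. None of the 9 reached 10 TPM on average, against 26.4% of protein-coding genes at or above that level. All 8 general neuronal genes and 13 of 15 dorsal glutamatergic genes were detected, which goes with the label of cortical neurons. All 9 astrocyte markers were detected too, with Slc1a3 at 184 ± 19 TPM, so the RNA was not of neurons alone. Depth was at least 16.6, 14.5 and 14.5 M reads in Control 1, 2 and 3. In bulk RNA, few cells with much of a transcript and many cells with little of it cannot be told apart.

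The order of the mean levels was Lhx6, Dlx1, Sox6, Maf, Dlx5, Dlx2, Dlx6, Prox1 and Nkx2-1. Of the 8 neighbouring pairs in this order, 3 had overlapping library values and did not differ beyond the SD of their difference: Lhx6 and Dlx1, Maf and Dlx5, and Dlx2 and Dlx6. The other 5 pairs did not overlap between libraries. The steps of the order are therefore clearest below Dlx1, below Sox6, below Dlx5 and at the 2 lowest genes.

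**Figure D1:**
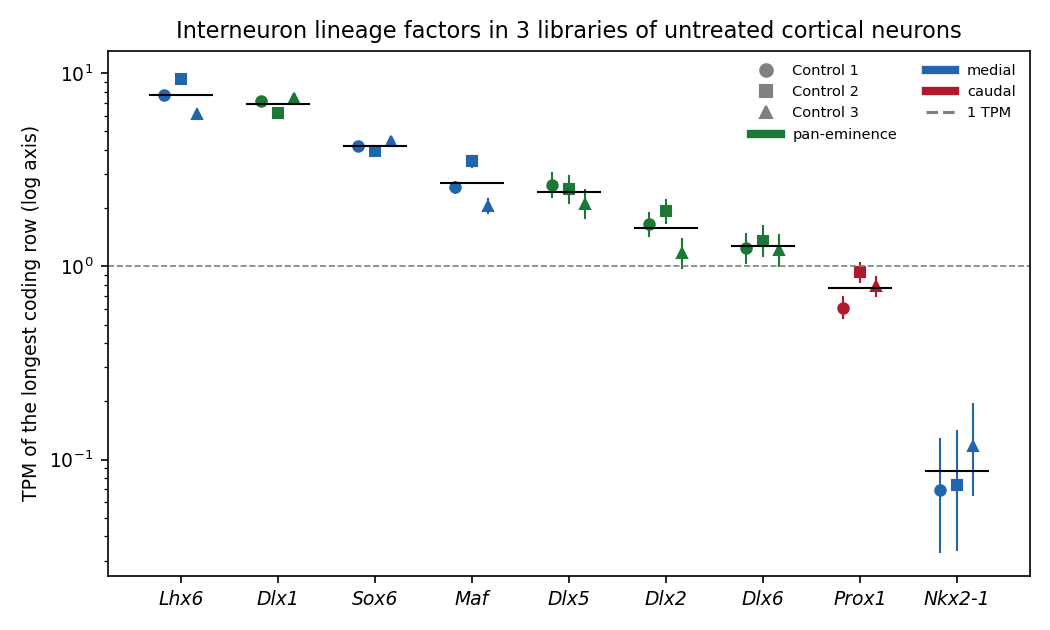
TPM of the longest coding row (log axis) for the 9 genes in order of mean level. Symbols are the libraries Control 1, Control 2 and Control 3, vertical lines their exact 95% Poisson intervals of the read count, black bars the means and the dashed line 1 TPM; colours mark pan-eminence, medial and caudal factors. Lhx6 and Dlx1 lie highest, Prox1 lies below the dashed line in all 3 libraries and Nkx2-1 near 0.1 TPM.

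Among the DLX genes, Dlx1 stood highest. It had 7.15, 6.19 and 7.44 TPM in Control 1, 2 and 3, resting on 1506, 1100 and 1397 reads. Dlx2, its neighbour on chromosome 2, had 1.65, 1.93 and 1.17 TPM (209, 206 and 132 reads). All Dlx1 values lay above all Dlx2 values. In 3 of 3 libraries Dlx1 exceeded Dlx2, by a log2(TPM + 1) difference of 1.63 ± 0.33 (SD, n = 3), and in TPM it was 4.64 ± 1.60 times as high. An exact permutation test that flips the signs of the library differences (two-sided) gave p = 0.25, the smallest value 3 libraries allow, and 0.25 after Benjamini-Hochberg adjustment over the 7 pairs of genes tested. Every other pair below gave these same p-values, since this test cannot go lower with 3 libraries.

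Dlx5 and Dlx6 form the second of the paired DLX loci. Dlx6 had 1.24, 1.36 and 1.22 TPM (141, 130 and 123 reads), and Dlx5 had 2.63, 2.50 and 2.11 TPM (192, 154 and 137 reads). Dlx6 was below Dlx5 by a log2 difference of -0.59 ± 0.10 in 3 of 3 libraries. This difference rests on the transcript row: with the highest row of each gene, Dlx6 stood at 2.54 ± 0.20 TPM and Dlx5 at 2.57 ± 0.29 TPM, a log2 difference of -0.01 ± 0.07 that was above 0 in 2 of 3 libraries, and with the sum of rows the sign turned, at 0.52. The highest Dlx6 row is a model of 605 exonic bases with 80, 71 and 64 reads, while the row used has 2216 bases. The other 2 family members in the table were nearly without reads. Dlx3, an epidermal and placental factor, had 3, 0 and 1 reads, and Dlx4 had 1, 0 and 0.

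In both loci the 2 genes are convergent, which places their last exons next to each other. On mm10, Dlx1 runs from 71528113 to 71533980 on the plus strand of chromosome 2 and Dlx2 from 71543408 to 71546754 on the minus strand, a gap of 9.43 kb. Dlx6 runs from 6863334 to 6868568 on the plus strand of chromosome 6 and Dlx5 from 6877805 to 6882085 on the minus strand, 9.24 kb away. Each locus also makes an antisense RNA, Dlx1as and Dlx6os1; Dlx6os1 is also known as Evf2.

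Dlx1as had its highest row at 18.4, 19.4 and 12.5 TPM (611, 542 and 368 reads), above Dlx1 itself in every library. This row covers 647 exonic bases, of which 335 lie opposite exons of the Dlx1 row, and extends beyond Dlx1 on the side of Dlx2. A second Dlx1as row, with no exonic base in common with Dlx1, had 15.7, 14.4 and 6.06 TPM. The longest Dlx1as row, by contrast, had only 0.753, 0.363 and 0.407 TPM, so the level of this RNA depends on the model chosen. The Dlx6os1 row that spans Dlx6 had 7.26, 8.70 and 5.57 TPM and shares no exonic base with the Dlx6 row used. Dlx6os1 thus lay above both Dlx5 and Dlx6 in each library.

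Counting by strand matters for such pairs. The antisense gene Gm15655 lies with all its 440 exonic bases opposite the Maf row and had 0, 1 and 0 reads, while Maf had 837, 961 and 596. At this locus reads of one strand were not counted on the other. Prox1os, which shares 133 exonic bases with Prox1, had 4, 3 and 5 reads. Gm26973, opposite Nkx2-1, was listed at 0 in all 3 libraries, and Sox6os had 3, 0 and 2 reads. Neither Gm26973 nor Sox6os shares an exonic base with the Nkx2-1 or Sox6 row used, so their counts do not bear on strand.

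The medial factors spanned the whole range of the set. Lhx6, the LIM homeodomain factor kept in postmitotic medial interneurons, was the highest of the 9 genes in Control 1 and 2, and Dlx1 in Control 3. Lhx6 had 7.68, 9.33 and 6.14 TPM (1370, 1404 and 976 reads), a mean of 7.72 ± 1.60 TPM, above 68.2% of protein-coding genes. Nkx2-1, which acts before it, had 0.0695, 0.0741 and 0.117 TPM. These values rest on 10, 9 and 15 reads, with exact 95% Poisson intervals of 0.0333 to 0.128, 0.0339 to 0.141 and 0.0654 to 0.193 TPM that cover counting error only. The Nkx2-1 intervals overlap, so no difference between libraries was detectable at this depth. The log2(TPM + 1) difference of Lhx6 over Nkx2-1 was 2.99 ± 0.30, above 0 in 3 of 3 libraries. In TPM Lhx6 was 111, 126 and 52.5 times Nkx2-1 in Control 1, 2 and 3.

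Both genes lie on the minus strand. Lhx6 (chromosome 2, 36081954 to 36105408, 10 exons) has several starts, and Nkx2-1 (chromosome 12, 56531958 to 56536908, 3 exons) has a single RefSeq promoter entry. The 250 bases before 4 starts are shown, the first 3 because the rows compared begin at them (the longest and the highest Lhx6 row and the Nkx2-1 row). The fourth, of Sox6, is shown for the letters it holds; it precedes neither the Sox6 row used nor the highest Sox6 row. They come from RefSeq on GRCm38.p6, which is mm10, 5′ to 3′ on the strand of the gene, at chr2:36105409-36105658, chr2:36104061-36104310, chr12:56536909-56537158 and chr7:116031048-116031297. Capitals mark CACTTG or its reverse complement CAAGTG, letters that NKX2-type homeodomains prefer.
Lhx6 longest row: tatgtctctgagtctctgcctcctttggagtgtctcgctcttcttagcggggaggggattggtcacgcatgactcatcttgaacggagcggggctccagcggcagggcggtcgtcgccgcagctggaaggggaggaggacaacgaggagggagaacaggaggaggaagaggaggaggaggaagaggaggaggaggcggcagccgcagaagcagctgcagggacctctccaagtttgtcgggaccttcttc
Lhx6 highest row: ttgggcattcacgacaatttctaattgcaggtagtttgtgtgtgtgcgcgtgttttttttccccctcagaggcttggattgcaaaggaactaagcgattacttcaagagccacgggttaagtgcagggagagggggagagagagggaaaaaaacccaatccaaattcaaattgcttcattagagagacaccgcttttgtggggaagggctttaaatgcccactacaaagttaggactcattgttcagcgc
Nkx2-1: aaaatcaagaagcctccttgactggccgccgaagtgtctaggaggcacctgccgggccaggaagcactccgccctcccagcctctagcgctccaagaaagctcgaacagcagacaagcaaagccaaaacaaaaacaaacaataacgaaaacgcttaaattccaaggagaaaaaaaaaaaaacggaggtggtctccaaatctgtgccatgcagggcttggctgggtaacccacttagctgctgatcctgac
Sox6: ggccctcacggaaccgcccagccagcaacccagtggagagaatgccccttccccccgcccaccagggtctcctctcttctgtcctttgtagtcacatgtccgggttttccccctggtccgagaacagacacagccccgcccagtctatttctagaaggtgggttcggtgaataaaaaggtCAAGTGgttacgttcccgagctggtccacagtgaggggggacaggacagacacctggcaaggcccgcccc

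The Lhx6 starts could not be told apart by level. The row from the first start held 1370, 1404 and 976 reads and that from the second 1367, 1403 and 973, because nearly all reads fell in exons that both share. The bases before these starts differ in composition, with 61.6% G or C and 14 CG pairs before the first and 46.0% and 7 before the second. The Nkx2-1 window had 50.8% G or C and 9 CG pairs, and the median over 32544 promoter windows of the same length was 52.4%. CACTTG, on either strand, occurs in 11.5% of those windows and in 2 of the 14 windows of the 9 genes, 1 of 6 Sox6 windows and 1 of 2 Prox1 windows. The windows before the Sox6 row used and before the highest Sox6 row do not hold it. TAATTA, the core letters of many homeodomain sites including those of DLX and LHX proteins, occurs in 4.84% of all windows and in none of the 14. Entries existed for 6 of the 9 genes: Dlx1, Dlx2, Lhx6, Sox6, Nkx2-1 and Prox1. Such matches describe letters only.

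Sox6, a SOXD factor needed for the placement and maturation of medial interneurons, had 4.19, 3.97 and 4.44 TPM (1766, 1411 and 1669 reads). The highest library was 1.12 times the lowest, as it also was for Dlx6, the narrowest ratios of the set. Sox6 is by far the longest of the genes, with a row of 17 exons over 524 kb on chromosome 7. Its 3 longest rows start at different places but held 1766 to 1769 reads in Control 1, so they too share nearly all reads. Sox5, its closest relative in the family, stood at 3.05 ± 0.34 TPM and Sox13 at 0.283 ± 0.060 TPM.

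Maf, a basic leucine zipper factor of migrating and maturing medial interneurons, had 2.57, 3.50 and 2.05 TPM. The highest library was 1.70 times the lowest, the widest ratio of the set, and the 3 Poisson intervals did not overlap. The row used is a single-exon model of 6360 bases on chromosome 8. The spliced row of 3223 bases gave the same order of libraries, at 2.53, 3.17 and 2.21 TPM. In its family Mafg, a small MAF protein present in most cells, stood at 14.7 ± 1.2 TPM.

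Prox1, a homeodomain-related factor of caudal interneurons that dentate granule neurons and lymphatic vessels also express, had 0.611, 0.930 and 0.788 TPM (248, 318 and 285 reads). It was under 1 TPM in all 3 libraries. The interval of Control 1, 0.538 to 0.692 TPM, lay below those of Control 2, 0.830 to 1.04, and Control 3, 0.700 to 0.885. The order of libraries depends on the row, since a Prox1 row of 3285 bases had 0.612, 0.683 and 0.466 TPM with Control 3 lowest. Prox2 stood at 0.0942 ± 0.0210 TPM.

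Each of Lhx6, Sox6 and Maf lay above Prox1, and Nkx2-1 lay below it. On the log2(TPM + 1) scale Lhx6 exceeded Prox1 by 2.28 ± 0.25, Sox6 by 1.55 ± 0.17 and Maf by 1.05 ± 0.24, each in 3 of 3 libraries. In TPM these were 10.1 ± 2.4, 5.58 ± 1.29 and 3.52 ± 0.83 times the level of Prox1. Nkx2-1 differed from Prox1 by -0.71 ± 0.13, below it in 3 of 3 libraries, at 0.114 ± 0.034 times its TPM. The caudal side of this comparison is 1 gene, and levels of different factors do not count cells of either origin.

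**Figure D2:**
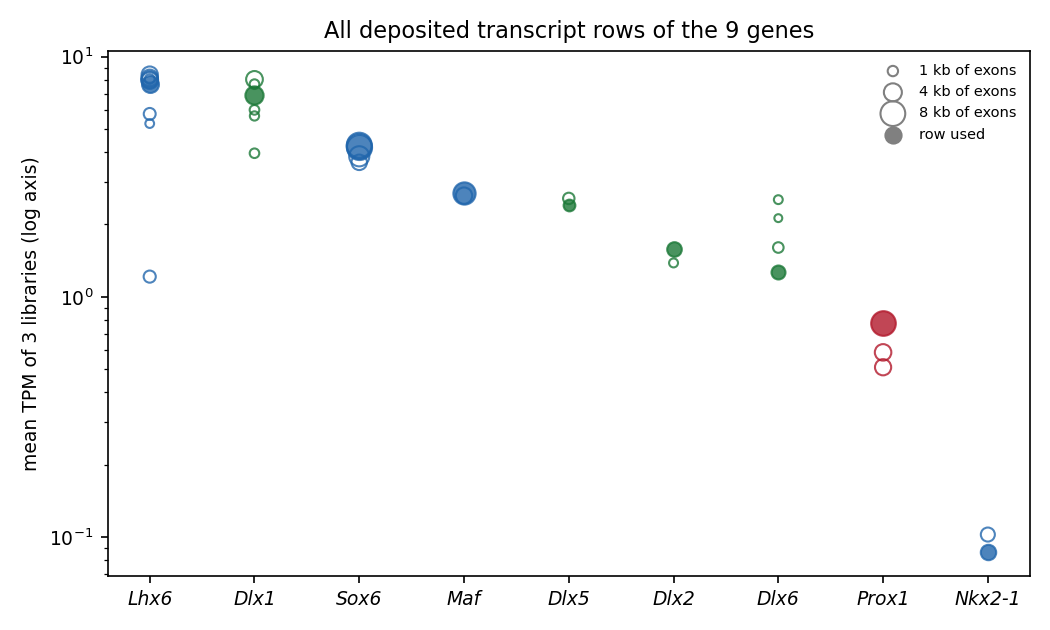
Mean TPM over the 3 libraries (log axis) of every deposited transcript row of the 9 genes; filled circles are the rows used and circle area grows with exonic length. Lhx6 rows spread most, followed by those of Dlx1 and Dlx6, with the long Dlx6 row at 1.27 TPM and a short one at 2.54 TPM, and an early-exon Lhx6 row at 1.21 TPM against 7.72 TPM for the row used.

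Rows of 1 gene count the same reads more than once, and they do not cover a gene evenly. For Lhx6, a processed model of 1551 bases over the first exons had 86, 93 and 83 reads, or 1.21 ± 0.16 TPM, whereas the 5 longest rows stood between 7.72 and 8.41 TPM. For Dlx1 the row means ran between 3.96 and 8.03 TPM, with the lowest on a model of 787 bases that ends in the first part of the gene. For Prox1 the longest row, which alone reaches the last part of the transcript, was the highest of its 3 rows, at 0.776 ± 0.159 TPM. With the highest row in place of the longest, the level moved by more than its SD for Dlx1, to 8.03 ± 0.76 TPM, and for Dlx6.

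A further limit is the scale. Each library's TPM sum to 1000000 over rows that share reads, so a single row per gene takes up only part of that sum. Scaled so that the nuclear protein-coding genes alone make up that sum, levels were 4.68 to 4.85 times as high, and 8 of the 9 genes were detected, against 71.5% of protein-coding genes. At 10 TPM on this scale 5 of the 9 were counted, Lhx6, Dlx1, Sox6, Maf and Dlx5, against 53.8%. Prox1 was the gene gained, at 3.69 TPM, while Nkx2-1 stayed below the limit at 0.414 TPM. The sum of rows likewise gave 8, against 67.3%, and the highest row gave 7, against 63%. With the limit at 0.5 TPM 8 of the 9 were counted, against 66.4% of protein-coding genes, and at 5 TPM 2, Lhx6 and Dlx1, against 40.5%.

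Other genes of the medial lineage were detected at a share near that of all protein-coding genes. Of 19 such genes measured, 13 were detected, against 61.5% of all protein-coding genes. Their median was 2.21 on the log2(TPM + 1) scale, against 2.13 for the 4 medial factors. Sst, the neuropeptide of somatostatin interneurons, had 131, 108 and 79.7 TPM, and Nxph1, a secreted neurexin ligand of medial interneurons, had 31.9, 33.7 and 23.7 TPM. Satb1, a chromatin organiser that acts after Lhx6, stood at 24.3 ± 2.4 TPM. Pvalb, the calcium buffer of mature fast-spiking cells, was below the limit at 0.260 ± 0.150 TPM, and Lhx8, a factor of cholinergic neurons of medial origin, was listed at 0.

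Most of the other caudal genes were detected too. Of 16 such genes 14 reached the limit, against 61.5% of all protein-coding genes. The median of this list was 2.06, against 0.83 for Prox1. Its 3 highest genes, Cck at 103 ± 22, Id2 at 70.8 ± 2.8 and Cnr1 at 35.3 ± 6.3 TPM, are also made by other cortical cells. Among factors, Nr2f1 (COUP-TFI), which is graded across the cortex as well, stood at 24.8 ± 1.5 TPM, and Nr2f2 (COUP-TFII), a caudal eminence factor, at 1.84 ± 0.28 TPM. Sp8, of caudal and lateral origin, stood at 1.26 ± 0.11 TPM. Vip had 1.06, 3.17 and 1.19 TPM, with Control 2 apart from the others, and Adarb2, a marker of adult caudal interneurons, stood at 3.94 ± 0.71 TPM.

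The ventral progenitor factors lay mostly below the limit. Of 12 genes 3 were detected, against 61.5% of all protein-coding genes, with a median of 0.29. Among them Olig2 stood at 15.95 ± 6.36 and Ptch1, a receptor of Sonic hedgehog, at 3.04 ± 0.13 TPM. Gsx1 and Gsx2, homeobox genes of ventral progenitors that act upstream of the DLX genes, stood at 0.516 ± 0.151 and 0.107 ± 0.038 TPM. Of the lateral eminence and striatal list 8 of 14 were detected (median 1.08), a share near the same 61.5%. Among them Meis2 stood at 17.8 ± 3.1 and Rasgrp2 at 13.3 ± 2.3 TPM, and Ebf1, a factor of striatal projection neurons, stood at 0.0119 ± 0.0011 TPM.

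**Figure D3:**
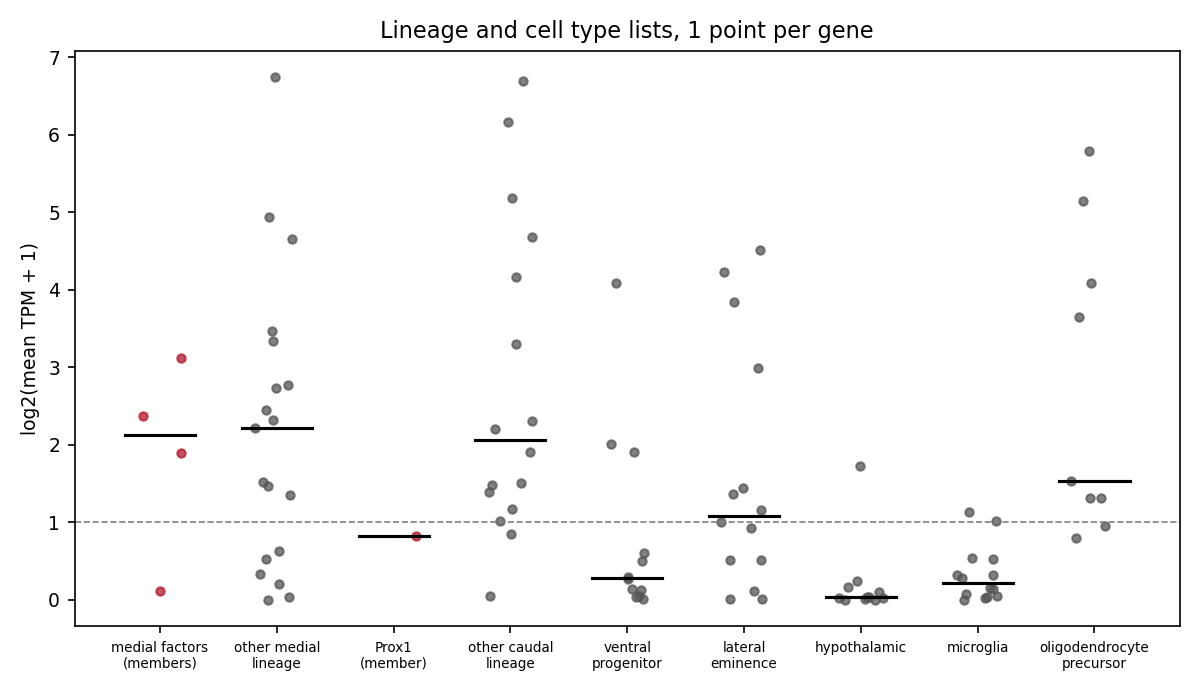
log2(mean TPM + 1) of each gene, 1 point per gene, for the medial factors and Prox1 (red) and for lists of related lineages and other cell types (grey); horizontal bars are list medians and the dashed line is the 1 TPM limit. The medial factors have a median of 2.13 and the other medial genes 2.21, while ventral progenitor, hypothalamic and microglial genes lie mostly below the limit.

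Several of the 9 genes are also made by other cells, and markers of those cells were measured beside them. The counts of detected markers are to be read against 61.5% of all protein-coding genes. For Nkx2-1, of 11 hypothalamic genes 1 was detected, Agrp at 2.32 ± 0.53 TPM, and the summed level of the list was 2.30, 2.75 and 3.32 TPM. Pomc stood at 0.127 ± 0.016 TPM and Nr5a1 was listed at 0. None of the 5 basal forebrain cholinergic genes in the table was detected, with summed levels of 0.202, 0.163 and 0.188 TPM. For Maf, which macrophages express, 2 of 14 microglial genes were detected, Cd68 at 1.19 ± 0.41 and Aif1 at 1.03 ± 0.43 TPM. The microglial genes summed to 4.695, 4.202 and 3.661 TPM, Csf1r, the receptor on which microglia depend, had 28, 19 and 19 reads and Tmem119 had none, which allows up to 0.0310 TPM. The microglial sum was highest in Control 1, while Maf was highest in Control 2; the part of these cells in the Maf level was not tested.

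For Prox1, 3 of 6 dentate granule genes were detected, against 61.5% of all protein-coding genes. These were Calb1 at 29.0 ± 4.2, C1ql2 at 2.21 ± 0.13 and Dock10 at 1.42 ± 0.06 TPM. Calb1, a calcium buffer, is made by interneurons and other cortical neurons too, while C1ql2 is a synaptic protein best known from dentate granule neurons. C1ql2 had 2.06, 2.27 and 2.31 TPM, above Prox1 in every library. The other genes of this list, Dsp, Tdo2 and Lct, were below the limit, at 0.111 ± 0.021, 0.186 ± 0.027 and 0.0160 ± 0.0087 TPM. The dentate list summed to 29.7, 37.8 and 31.5 TPM, most of it Calb1 at 25.9, 33.8 and 27.4 TPM. Of 8 lymphatic and vascular genes 1 was detected, Pdpn at 10.8 ± 1.4 TPM, which astrocytes can express, while Flt4, a receptor of lymphatic vessels, stood at 0.00818 ± 0.00589 TPM. The part of dentate neurons in the Prox1 level was not tested.

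The 9 genes differed in how steady they were. Their coefficients of variation ran between 5.64% for Sox6 and 30.1% for Nkx2-1, the latter on only 10, 9 and 15 reads. The median was 20.5%, with the undetected Prox1 and Nkx2-1 included. Among the 7 detected factors the middle value was that of Dlx5, 11.3%. The median of detected protein-coding genes was 7.89%. That of genes of 1 to 10 TPM was 8.57%, with quartiles of 5.34% and 12.7%, so the middle detected factor lay between these quartiles. Dlx6 (5.94%), Dlx1 (9.44%) and Dlx5 (11.3%) were the steadier ones besides Sox6. Prox1 (20.5%), Lhx6 (20.7%), Dlx2 (24.3%) and Maf (27.0%) varied more than 95.4% of detected protein-coding genes or a larger share. For Lhx6 and Maf the Poisson intervals of the 3 libraries were apart, so their spread was larger than counting error. Some intervals were also apart for Dlx1, Dlx2, Sox6 and Prox1. For Dlx2, Control 3 (0.978 to 1.39 TPM) lay below Control 1 (1.43 to 1.89 TPM). All intervals overlapped for Dlx5, Dlx6 and Nkx2-1.

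Some of the variable genes and most genes of GABA signalling had the same order of libraries. Lhx6, Maf and Dlx2 were highest in Control 2 and lowest in Control 3, and so was Dlx6. The Poisson intervals of Dlx6 overlapped between all libraries, so its counts do not set them apart. For Dlx2 the intervals of Control 1 and 2 overlapped. Its shorter row, at 1.81, 1.29 and 1.05 TPM, was highest in Control 1. Of the Dlx1as rows the highest had this order, while the second, at 15.7, 14.4 and 6.06 TPM, and the longest were highest in Control 1. Lhx6 reached 121% of its mean in Control 2 and 79.6% in Control 3, Maf 129% and 75.8%, and Dlx2 122% and 73.9%. Gad1, which makes GABA, had 84.9, 107 and 61.5 TPM, Gad2 24.7, 34.2 and 20.7 TPM, and the vesicular transporter gene Slc32a1 23.5, 25.5 and 16.3 TPM. Erbb4, a neuregulin receptor of interneurons, had 8.96, 11.9 and 7.04 TPM. Of the 10 GABAergic genes 7 were highest in Control 2 and 8 lowest in Control 3. That list also holds Dlx1as, entered with its longest row, Dlx6os1, Elfn1 at 6.20 ± 0.58 and the general neuronal gene Rbfox3 at 22.6 ± 0.03 TPM.

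These shares have to be read against all genes. Of the 7 detected factors 4 were highest in Control 2, against 40.2% of detected protein-coding genes, and 5 were lowest in Control 3, against 40.8%. Each count includes Dlx6, whose intervals overlap between all libraries. Of the 18 other medial genes above 0, 11 were highest in Control 2 and 15 lowest in Control 3. Of 8 general neuronal genes 5 and 6 were, and their summed level was 2140, 2225 and 1933 TPM. The dorsal glutamatergic list, by contrast, summed to 240, 236 and 236 TPM, with 6 of 15 genes highest in Control 2 and 5 lowest in Control 3. The order was noticed in these libraries and was not tested.

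Dlx1 and Sox6 were highest in Control 3 and lowest in Control 2, where they stood at 89.4% and 94.5% of their means. Of the 7 detected factors these were the only 2 highest in Control 3, against 31.6% of detected protein-coding genes. They were also the only 2 lowest in Control 2, against 25.6%, so each share was near that of all detected genes. The share of all genes with both traits was not computed. Nkx2-1 was highest in Control 3 too but lowest in Control 1, and its counts of 10, 9 and 15 reads do not set the libraries apart. Oligodendrocyte precursors, which arise partly from the same ventral progenitors and express Sox6, had the same order in their markers. Of 9 such markers 7 were detected, 8 were highest in Control 3 and 8 lowest in Control 2, and their summed level was 120, 109 and 141 TPM. Pdgfra, the growth factor receptor that defines these cells, had 11.5, 4.94 and 18.4 TPM, Olig2 15.1, 10.1 and 22.7 TPM and Sox10 2.18, 0.853 and 2.62 TPM. None of these markers was at 0, and the Sox6 range, 3.97 to 4.44 TPM, was far narrower than that of Pdgfra. Astrocyte markers, 9 of 9 detected, summed to 431, 459 and 523 TPM, also highest in Control 3. The part of glial cells in the levels of Sox6 and Dlx1 was not tested.

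**Figure D4:**
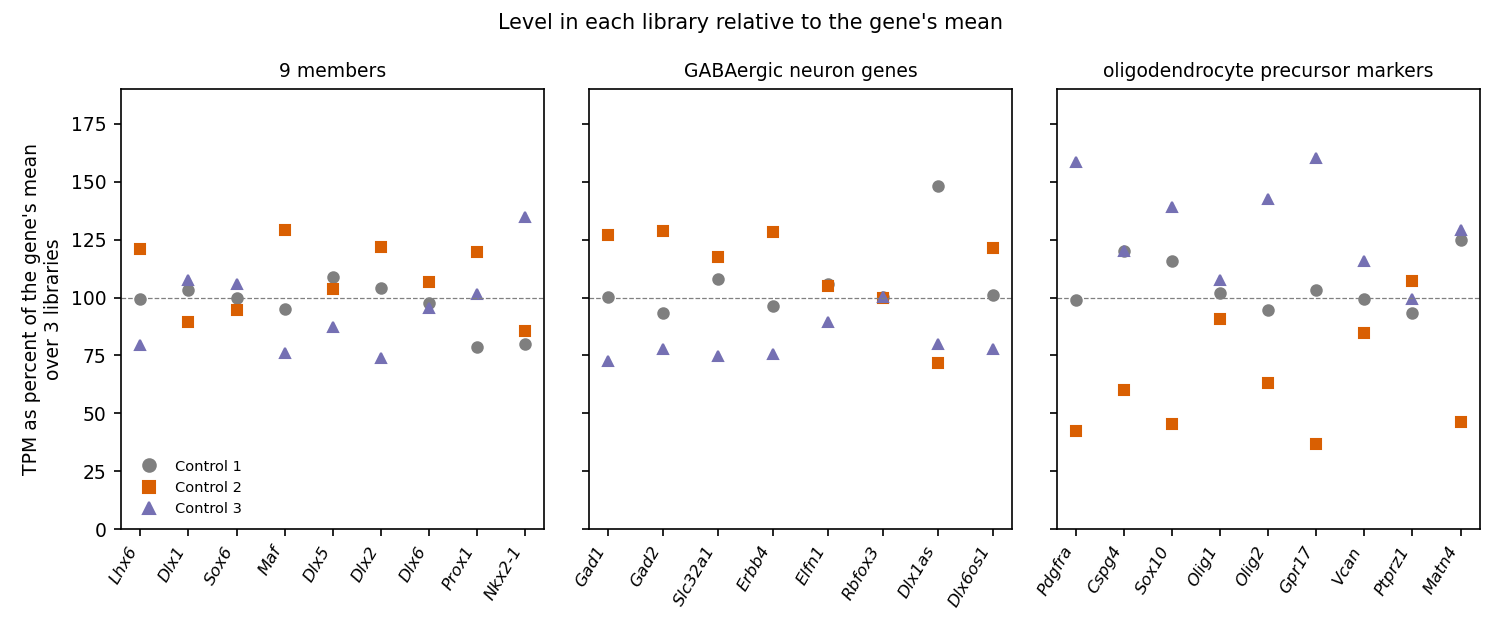
TPM in each library as a percent of the gene's mean over the 3 libraries, for the 9 factors, the GABAergic neuron genes named in the text and the oligodendrocyte precursor markers; symbols and colours are the libraries and the dashed line is 100%. Lhx6, Maf, Dlx2 and most of the GABAergic genes shown are highest in Control 2 and lowest in Control 3, while Dlx1, Sox6 and most precursor markers are highest in Control 3 and lowest in Control 2.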

How the data were processed

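The 3 libraries were made from poly-A RNA with a strand-specific kit, per the labels' protocols. The values are the authors' TPM, deposited as 1 table with a row per GENCODE transcript; the unit comes from the name of that table, and each library sums to 1000000. Per the submitters' processing notes, the tools were Trimmomatic, TopHat, Bowtie and HTSeq and the build mm10; their versions and settings are not given.

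Of 84660 rows, 82970 were matched by identifier and position to GENCODE M21 on the same build. The gene value is the longest protein-coding row (other genes: longest row). In the 42156 rows whose transcript version, start and end are equal in both GENCODE releases, 100% of values above 0, multiplied by exonic length and divided by what 1 read is worth in that library, came out whole within 0.01, which gave reads per row; the fullest such row of each gene adds up to at least 16.6, 14.5 and 14.5 M reads in Control 1, 2 and 3, and 1 TPM on 2 kb stands for 103, 86.5 and 91.4 reads. Poisson intervals cover counting error only.

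Pairs of genes were compared on log2(TPM + 1) within each library with an exact permutation test over sign flips (two-sided). Differences on that scale understate ratios of low genes. The genes, lists and pairs were chosen with earlier results of these data known. Named genes are the 9 factors, the 3 highest genes of each list, defining markers of cell types that could make a factor, the GABAergic list and genes overlapping a factor; other list and family genes were named after their values were seen, as was the library order. Some genes that this rule covers are not reported here. No search for genes of similar pattern was made over 3 libraries. Chat, Isl1, Nkx2-4, Nkx2-9 and Tac3 were not analysed here. Alternatives were the highest row, the sum of rows, scaling to nuclear protein-coding genes, the median over libraries, leaving out each library, detection limits of 0.5 and 5 TPM, and 0.1 as pseudocount. Calculations used Python 3.11.15 with pandas, numpy and scipy and were tested on simulated data.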

Additional observations from a re-analysis of the deposited data

How the results depend on the processing

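Of 51 alternative values of the 7 pairs, 50 had the sign of the main value, but most of these could not have changed it. Each pair had the same sign in every library. Leaving out a library, scaling, the other pseudocount and the 1 TPM restriction therefore keep the sign by arithmetic. Only the highest row and the sum of rows could change it. With the highest row Dlx6 minus Dlx5 was -0.01 ± 0.07 on the log2 scale and differed in sign between libraries. With the sum of rows this pair reversed to 0.52. Dlx6 has 4 rows that share reads and Dlx5 has 2. Detection at 5 TPM left 2 of the 9 factors, Lhx6 and Dlx1, against 40.5% of protein-coding genes. The other settings gave 7 or 8, against 63% to 71.5% of protein-coding genes where that share was computed. The median level of the 9 factors was 2.66 with summed rows and 3.64 after scaling, both by construction, and stayed within its SD with the highest row, the median over libraries and without each library. The level of each factor stayed within its SD without each library, which holds for any 3 values and so does not test stability. The restriction of pairs to genes of at least 1 TPM gave no value for the 5 pairs with Prox1 or Nkx2-1. No paired analysis was possible because the series holds 1 group, so replicate numbers match no samples between groups; genes were compared within libraries. The sign-flip test cannot go below 0.25 with 3 libraries, and depth limits Nkx2-1, at 9 to 15 reads.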
